A study of Oryza sativa Japonica Group with 20 samples.

Results

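The clade A type 2C protein phosphatases (PP2C) of rice, the phosphatases of abscisic acid (ABA) signalling, were followed at the RNA level through a pair of experiments on the gibberellin (GA) pathway. The 9 genes were taken by locus ID, out of 34555 genes listed in either table of the series: PP2C06 (LOC_Os01g40094), PP2C08 (LOC_Os01g46760), PP2C09 (LOC_Os01g62760), PP2C30 (LOC_Os03g16170), PP2C49 (LOC_Os05g38290), PP2C50 (LOC_Os05g46040), PP2C51 (LOC_Os05g49730), PP2C53 (LOC_Os05g51510) and PP2C68 (LOC_Os09g15670). All 9 had a row in both tables, and all 9 passed the filter on low values in both (10 or more normalised reads in 3 or more of an experiment's 6 libraries). The symbols pair with the IDs as the selection gave them and were not checked against an annotation.

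RNA was sequenced from whole rice seedlings (Oryza sativa, Japonica group) in 12 libraries. In the first experiment 3 libraries of wild type, titled NIP, were set against 3 libraries of an SLR1 knockout, called slr1 here, both from seedlings 12 days old. In the second, 3 libraries of untreated wild-type control seedlings were set against 3 libraries of wild-type seedlings given 100 uM GA through the roots for 1 h. The sources used here do not give seedling age in the second experiment, nor the number of plants or mutant lines behind a library. The p-values therefore reflect the spread among these libraries alone, and that spread may be technical. All seedlings were grown on the same kind of medium under the same light cycle, and none is labelled as treated with ABA.

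When ABA is absent, clade A PP2Cs hold SnRK2 kinases inactive by dephosphorylating them. When ABA binds its PYR/PYL/RCAR receptors, the receptors dock onto the phosphatases and block them, and the freed kinases activate bZIP transcription factors that switch on genes of seed maturation and drought protection. Many clade A PP2C genes are themselves induced by ABA, which gives the pathway a negative feedback. SLR1, the rice DELLA protein, represses GA responses and is degraded when GA is perceived. DELLA proteins are known to act on ABA signalling too.

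The libraries of the first experiment held 27778578 to 28010807 assigned reads, and those of the second 17919838 to 20979965. Values are normalised reads, the reads of a gene divided by a size factor of its library. Replicates were more alike in the second experiment: the median absolute deviation of a gene from its group mean was 0.0618 to 0.0656 on the log2 scale, against 0.109 to 0.182 in the first. The SLR1 transcript stood at 6133, 6810 and 7340 normalised reads in wild type and at 7310, 6380 and 7444 in slr1 (log2 fold change 0.06, adjusted p = 0.759 by limma), so transcript level does not check the knockout label. Of 4 leaf markers, the RbcS pair fell in slr1. The light-harvesting genes LOC_Os09g17740 and LOC_Os01g41710 overlapped between groups and were not called (log2 fold changes -0.35 and -1.07, adjusted p = 0.520 and 0.265 by limma). The summed leaf markers spanned 230682 to 379289 in wild type and 47125 to 117187 in slr1. This sum is mostly RbcS: in wild type the RbcS pair averaged 248304 and 61490 normalised reads, and the light-harvesting pair 1915 and 2271. The root marker RCc3 rose from between 9.58 and 37.8 to between 183 and 729. After GA, 0 of 4 leaf markers were called by limma although all 4 were lower on p alone (summed 807492 to 821198 in control, 708265 to 725053 after GA), and RCc3 rose from between 1.86 and 5.16 to between 36.0 and 45.0, passing the filter through the GA libraries alone. None of the 5 markers was at 0 in any library. The part of tissue makeup in the PP2C values was not tested, and in these bulk samples fewer cells of a type and less RNA per cell cannot be told apart.

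In slr1 seedlings, PP2C09 and PP2C49 rose, 0 of the 9 phosphatase genes fell, and PP2C53 stood at nearly the same level as in wild type. A gene was called as having risen or fallen at a limma adjusted p under 0.05 and a change of at least 2-fold. The 2 of 9 members called, both risen, compare with 13.7% of all 25132 genes tested that were called, 6.57% as risen and 7.14% as fallen. edgeR and DESeq2 on the recovered reads gave the same counts of 2 and 0, with 6.98% risen and 7.26% fallen of all genes in edgeR and 7.44% and 8.13% in DESeq2. At an unadjusted p under 0.05, limma put 3 members higher and 0 lower, against 19.3% higher and 19.3% lower of all genes. edgeR put 3 higher and 0 lower (20.3% and 19.2% of all genes), and DESeq2 4 and 0 (19.9% and 20.0%). On adjusted p alone 3 members passed in limma, all higher, against 24.9% of all genes in either direction and 12.0% higher. The median log2 fold change was 0.50 over the 9 members and 0.01 over all genes tested, and 7 of 9 members had a value above 0.

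PP2C09, known to promote growth and to lower drought tolerance, had 303, 307 and 267 normalised reads in wild type against 1359, 514 and 1431 in slr1. Every slr1 library lay above every wild-type library, and replicate 2 of slr1 was far below the other two. The mean ratio was 3.77, and the log2 fold change was 1.77 ± 0.38 (SE, n = 3 per group) with a 95% interval of 0.89 to 2.66 (adjusted p = 0.0157 by limma). The authors' deposited table gives PP2C09 a log2 fold change of 1.91 with an adjusted p of 2.92e-06.

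PP2C49, a repressor of ABA responses that bZIP23 is known to activate, had the largest fold change of the 9 in slr1. Its values were 9.68, 12.8 and 26.4 normalised reads in wild type and 112, 33.3 and 108 in slr1. The groups did not overlap, but slr1 replicate 2 came close to wild-type replicate 3. The ratio of means was 5.18, and the log2 fold change was 2.24 ± 0.57 (SE, n = 3 per group) with a 95% interval of 0.90 to 3.57 (adjusted p = 0.0287 by limma). The call of PP2C49 was lost without wild-type replicate 1, wild-type replicate 2, slr1 replicate 1 or slr1 replicate 3 (limma adjusted p up to 0.0896), and that of PP2C09 without wild-type replicate 3 (adjusted p = 0.0623 by limma).

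PP2C50 stood at 654, 672 and 617 normalised reads in wild type and at 876, 795 and 1159 in slr1. All slr1 libraries were above all wild-type libraries. Its change was smaller than the 2-fold minimum, with a log2 fold change of 0.52 ± 0.16 (SE, n = 3 per group, adjusted p = 0.0487 by limma) and a mean ratio of 1.46. That p lies close to the threshold, and it was above it, up to 0.148, when any library but slr1 replicate 2 was left out in limma, and 0.0573 with no filter on low values. PP2C09, PP2C49 and PP2C50 were the 3 of 9 members whose groups did not overlap, against 45.1% of all genes tested.

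**Figure D1:**
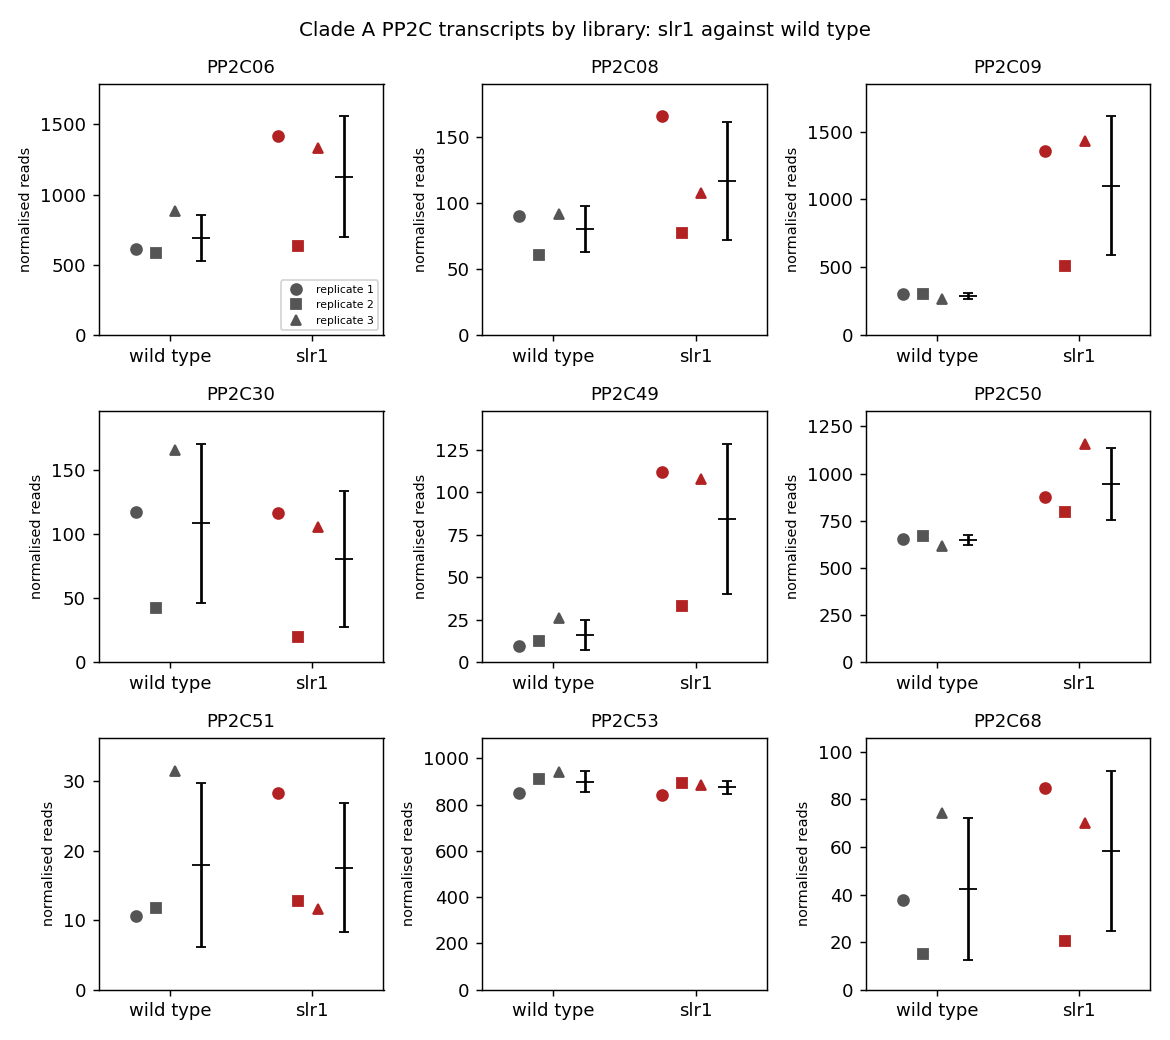
Normalised reads of each of the 9 clade A PP2C genes (y axis, from 0) in the 3 wild-type and 3 slr1 libraries, with the marker shape giving the replicate number and the bars the mean ± SD of each group. PP2C09, PP2C49 and PP2C50 show no overlap between groups, and PP2C53 lies at about 900 in all 6 libraries.

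Among the other 6 members no change was called. PP2C06 stood at 616, 586 and 882 normalised reads in wild type and at 1418, 637 and 1329 in slr1 (log2 fold change 0.64, adjusted p = 0.191 by limma). Its slr1 replicate 2 lay inside the wild-type range, and with that library left out the log2 fold change was 1.01 (adjusted p = 0.0245 by limma). That was the largest change among the fits that left out libraries, which ran down to 0.43, with limma adjusted p up to 0.392. PP2C08 was at 90.0, 60.7 and 91.5 in wild type and 166, 77.3 and 108 in slr1 (log2 fold change 0.48, adjusted p = 0.309 by limma). PP2C08 groups overlapped through the same library.

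PP2C30, a phosphatase shown to be blocked by the receptor PYL5, and PP2C68 had the widest intervals of the 9. PP2C68 stood at 37.8, 14.9 and 74.2 normalised reads in wild type and at 84.8, 20.5 and 69.9 in slr1, so each group spanned a several-fold range (log2 fold change 0.50, adjusted p = 0.636 by limma). PP2C30 was at 117, 42.6 and 166 in wild type and 116, 19.6 and 106 in slr1 (log2 fold change -0.58, adjusted p = 0.614 by limma, 95% interval -2.39 to 1.23). PP2C51, known to promote seed germination, was at 10.6, 11.7 and 31.5 against 28.3, 12.7 and 11.7 (log2 fold change 0.03, adjusted p = 0.977 by limma). A change of 2-fold in either direction lies inside the intervals of PP2C30, PP2C68 (-1.16 to 2.16) and PP2C51 (-1.22 to 1.27), so at this spread it was not detectable. A doubling also lies inside those of PP2C06 and PP2C08. PP2C53 had the narrowest interval: it stood at 850, 909 and 941 in wild type and 844, 895 and 885 in slr1, with a log2 fold change of -0.04 and a 95% interval of -0.28 to 0.19 (adjusted p = 0.794 by limma).

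Several members shared the same low and high libraries. In slr1 replicate 2, 7 of the 9 members had their lowest value of the slr1 group, and the median deviation of the 9 from the group mean was -0.74 on the log2 scale. Over all genes the median deviation was -0.0010, which size-factor scaling keeps near 0, and the median absolute deviation was 0.120. In wild-type replicate 3, 7 of 9 members were at their highest, with a median deviation of 0.37. For all genes it was -0.0030 there, with a median absolute deviation of 0.109. Wild-type replicate 2 was lowest for 4 members. Of the tissue markers, the light-harvesting gene LOC_Os01g41710 stood at 336 normalised reads in slr1 replicate 2 against 2066 and 1728 in the other slr1 libraries, and LOC_Os09g17740 at 1035 against 2528 and 1194. The RbcS pair had its middle value of the group there, and the part of these markers in the low PP2C values was not tested. With replicate 2 of both groups left out, an alternative chosen after the data were seen, PP2C09 had a log2 fold change of 2.29 (adjusted p = 0.00714 by limma) and PP2C49 one of 2.70 (adjusted p = 0.0315 by limma). In the second experiment the median deviation of the members lay between -0.04 and 0.06 in all 6 libraries.

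**Figure D2:**
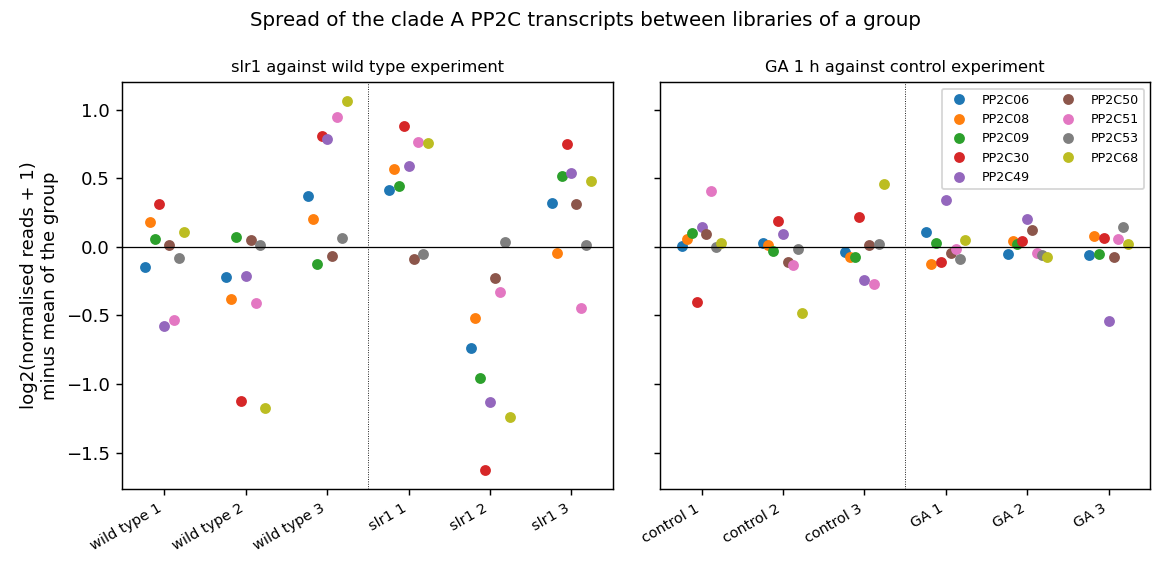
Deviation of each clade A PP2C gene from its group mean on the log2 scale (y axis) in each of the 12 libraries (x axis), with one colour per gene. Members sit low together in slr1 replicate 2 (median -0.74) and high together in wild-type replicate 3 (median 0.37), while in the GA experiment the medians lie between -0.04 and 0.06.

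After 1 h of GA, PP2C68 fell, and none of the 9 members rose. The 1 member called compares with 2.22% of all 23283 genes tested that were called, 0.996% as fallen and 1.22% as risen. edgeR and DESeq2 also gave 0 that rose and 1 that fell, with 1.28% risen and 1.01% fallen of all genes in edgeR and 1.04% and 0.859% in DESeq2. At an unadjusted p under 0.05, limma put 0 members higher and 3 lower, against 21.1% and 20.5% of all genes. edgeR put 0 higher and 3 lower (21.4% and 20.2% of all genes), and DESeq2 0 and 2 (17.6% and 16.3%). On adjusted p alone, limma put 2 members lower, against 33.0% of all genes in either direction and 15.9% lower. The median log2 fold change was -0.11 over the members and -0.01 over all genes tested, with 6 of 9 members below 0.

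PP2C68 stood at 31.0, 21.4 and 42.0 normalised reads in control seedlings and at 8.57, 7.77 and 8.37 after GA. The GA libraries lay close together and every one was below every control library. These values rest on few reads, 30, 23 and 45 reads against 8, 8 and 8. PP2C68 passed the filter on low values through the control libraries alone, since all GA libraries were below 10, so its place among the tested members already called for a difference in this direction. The GA mean was 0.262 of the control mean, and the log2 fold change was -1.76 ± 0.34 (SE, n = 3 per group) with a 95% interval of -2.46 to -1.07 (adjusted p = 0.000104 by limma). With no filter the adjusted p was 0.000273 by limma, and over all alternatives it lay between 6.97e-05 and 0.00483 in the limma, edgeR and DESeq2 fits. The authors' deposited table gives it a log2 fold change of -1.94 with an adjusted p of 0.000525.

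PP2C49 stood at 58.8, 56.9 and 44.8 normalised reads in control and at 37.5, 34.0 and 19.9 after GA, and the groups did not overlap. Its mean ratio was 0.569 and its log2 fold change was -0.83 ± 0.24 (SE, n = 3 per group, adjusted p = 0.00705 by limma), short of the 2-fold minimum. Without GA replicate 3, the lowest library, the log2 fold change was -0.56 (adjusted p = 0.0668 by limma), and without GA replicate 1 it passed the 2-fold minimum (adjusted p = 0.00480 by limma). In the authors' deposited table PP2C49 had a log2 fold change of -0.81 with an adjusted p of 0.0437.

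PP2C51 stood at 28.9, 19.6 and 17.7 in control and at 12.9, 12.6 and 13.6 after GA, without overlap (log2 fold change -0.69, adjusted p = 0.107 by limma). PP2C08 was at 14.5, 14.0 and 13.1 against 17.1, 19.4 and 19.9, the reverse direction and also without overlap (log2 fold change 0.42, adjusted p = 0.353 by limma). Both are low genes, and neither passed on adjusted p. Groups did not overlap for 6 of 9 members (PP2C06, PP2C08, PP2C09, PP2C49, PP2C51 and PP2C68), against 43.3% of all genes tested. PP2C68 passed the filter through the control libraries alone, so its part in this count is no support for the family. The gap was narrow for PP2C06, from 298.29 in control to 298.31 after GA. It was also narrow for PP2C09, from 361.2 in control to 359.8 after GA.

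PP2C09, which rose in slr1, was at 409, 373 and 361 in control and 360, 359 and 339 after GA, with a log2 fold change of -0.11 (adjusted p = 0.278 by limma) and a 95% interval of -0.26 to 0.04. PP2C06 was at 293, 298 and 284 against 335, 300.2 and 298 (log2 fold change 0.09, adjusted p = 0.426 by limma). For PP2C30, the values were 33.0, 50.3 and 51.3 in control and 33.2, 36.9 and 37.7 after GA (log2 fold change -0.29, adjusted p = 0.357 by limma). The intervals of these 3 genes exclude a 2-fold change in either direction. PP2C50 (338, 293 and 319 against 301, 337 and 294) and PP2C53 (693, 685 and 702 against 691, 707 and 813) had log2 fold changes of -0.03 and 0.08 (adjusted p = 0.846 and 0.298 by limma).

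**Figure D3:**
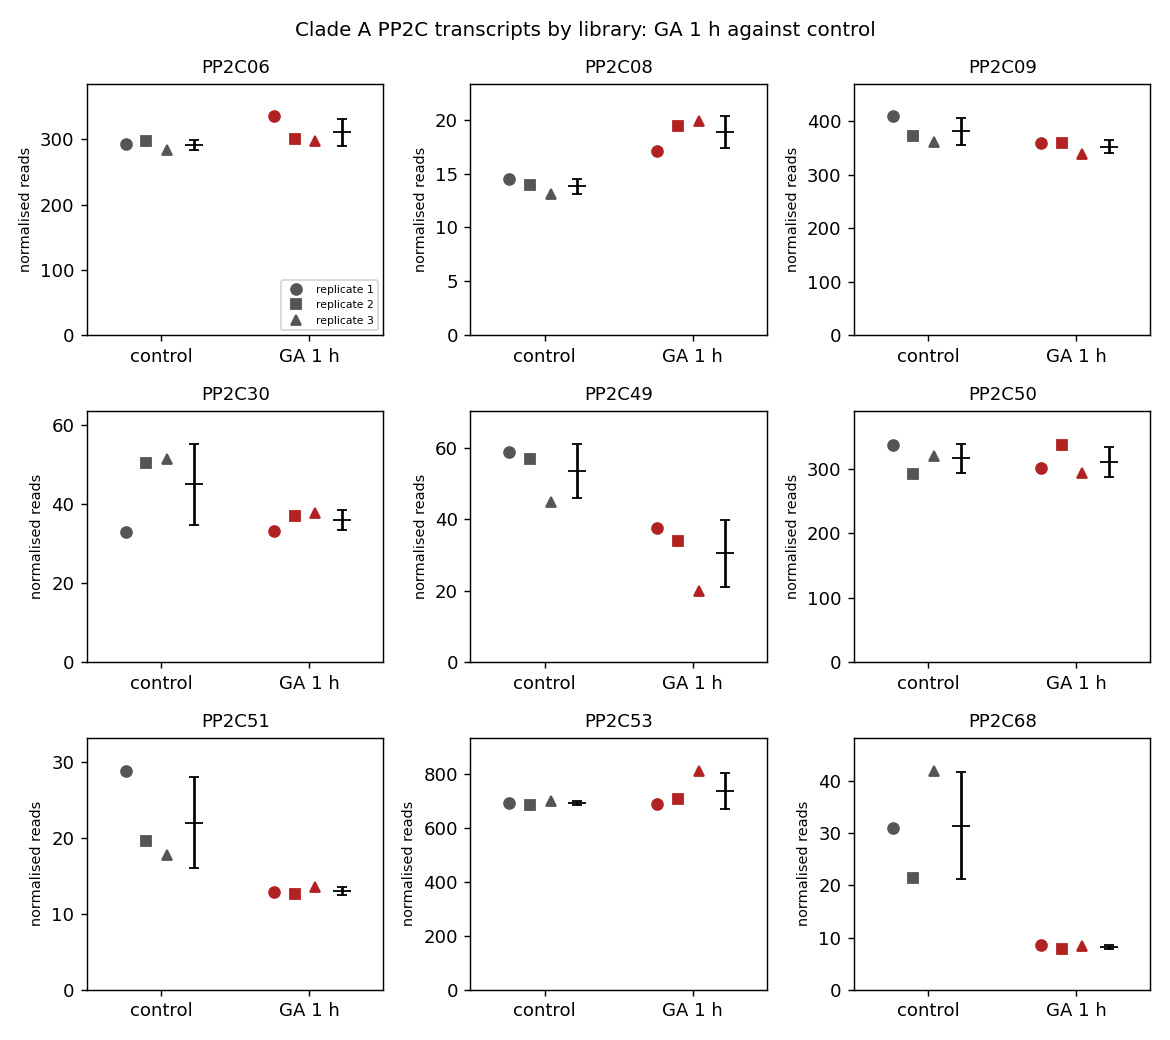
Normalised reads of each clade A PP2C gene (y axis, from 0) in the 3 control libraries and the 3 libraries taken after 1 h of 100 uM GA, with marker shapes for the replicate number and bars for the mean ± SD. PP2C68 lies between 21.4 and 42.0 in control and at about 8 after GA, and PP2C49 between 44.8 and 58.8 in control and 19.9 and 37.5 after GA.

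The comparisons ran in separate tables that share no libraries, and the difference between them was not tested. Side by side, PP2C49 had log2 fold changes of 2.24 in slr1 and -0.83 after GA, PP2C09 of 1.77 and -0.11, and PP2C68 of 0.50 and -1.76. PP2C53 had -0.04 and 0.08. In RPM, the usual scaling of reads to the depth of a library, PP2C49 averaged 0.575 ± 0.315 (SD, n = 3) in wild type, 1.59 ± 0.485 after GA, 2.73 ± 0.381 in control and 3.05 ± 1.59 in slr1. This order runs across both experiments, whose untreated wild types differed widely: LOC_Os09g17740, a light-harvesting gene, averaged 68.4 RPM in wild type and 8686 in control, and the kinase SAPK9 124 and 1.82. Genotype or treatment and experiment cannot be told apart in such an order, and levels were not tested across the tables. PP2C09 averaged 10.3 ± 0.887 in wild type, 18.4 ± 0.601 after GA, 19.5 ± 1.20 in control and 39.8 ± 18.4 in slr1. Its GA and control groups, from the same experiment, overlapped within their SD in RPM, although their normalised reads stood narrowly apart.

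**Figure D4:**
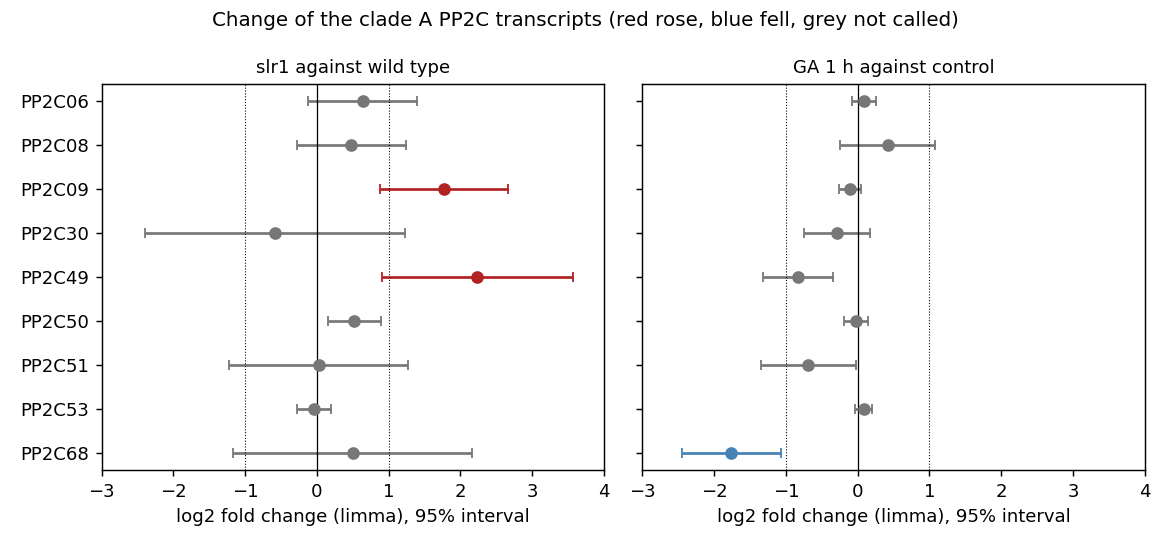
Log2 fold change (x axis, limma) with its 95% interval for the 9 clade A PP2C genes, slr1 against wild type on the left and GA against control on the right. Red marks genes that rose, blue those that fell and grey those not called, and the dotted lines mark a 2-fold change. PP2C09 (1.77) and PP2C49 (2.24) lie to the right in slr1, and PP2C68 (-1.76) to the left after GA.

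Summed over the 9 members, the family had an RPM of 99.7, 88.1 and 110 in wild type against 177, 110 and 191 in slr1. The slr1 replicate 2 library was level with the highest wild-type library, and the other two were above it. The log2 ratio of the summed levels was 0.68, and 0.53 to 0.89 when any 1 library was left out. PP2C09 made up 11.3, 11.7 and 8.63% of the member reads in wild type and 27.2, 17.1 and 27.5% in slr1. In the GA experiment the sums were 96.7, 92.6 and 94.1 in control and 93.6, 94.7 and 96.2 after GA (log2 ratio 0.01), and the sums of the groups overlapped.

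The rest of the ABA pathway was described through 4 lists holding 29 genes. Their symbols come from general knowledge and were not checked against an annotation. The lists were chosen with earlier results of these data known, so counts within them are no support for a response of the pathway. Of all genes tested, 6.57% rose and 7.14% fell in slr1, and 1.22% and 0.996% after GA. Of 7 receptors, 5 were tested in slr1 and 0 were called by limma or edgeR, while DESeq2 called PYL2 as having risen. At an unadjusted p under 0.05 limma found 2 of the 5 receptors, both higher, against 19.3% higher and 19.3% lower of all genes. They were PYL2 with a log2 fold change of 1.31 (adjusted p = 0.122 by limma) and PYL5 with 1.13 (adjusted p = 0.112 by limma). After GA all 7 receptors were tested and 0 were called by limma, edgeR or DESeq2. At an unadjusted p under 0.05 in limma, 3 receptors were higher and 1 was lower, against 21.1% and 20.5% of all genes. PYL5 had a log2 fold change of 0.36 without overlap of the groups (adjusted p = 2.74e-05 by limma), and PYL2, the lower one, -0.65 (adjusted p = 0.00165 by limma). Receptor medians were 0.37 and 0.08.

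Of the 10 SnRK2 kinases, 1 rose and 0 fell in slr1 by limma, edgeR and DESeq2. A share of 1 in 10 is near the 6.57% of all genes that rose. At an unadjusted p under 0.05, 6 kinases were higher and 1 lower in each of limma, edgeR and DESeq2. Of all genes, 19.3% were higher and 19.3% lower in limma, 20.3% and 19.2% in edgeR, and 19.9% and 20.0% in DESeq2. SAPK3 stood at 423, 592 and 460 normalised reads in wild type and at 1774, 1396 and 2474 in slr1, with a log2 fold change of 1.91 ± 0.23 (SE, n = 3 per group, adjusted p = 0.00323 by limma). All slr1 libraries were above all wild-type libraries. SAPK4 had a log2 fold change of 0.96 (adjusted p = 0.00483 by limma), just short of the 2-fold minimum. The kinase median was 0.26. After GA, 0 of 10 kinases were called by limma, edgeR or DESeq2, with a median of -0.06. At an unadjusted p under 0.05 in limma, 1 kinase was higher and 4 were lower, against 21.1% and 20.5% of all genes. SAPK6 had the largest fold change of the kinases (-0.42, adjusted p = 0.000225 by limma), and SAPK1 the lowest p (-0.39, adjusted p = 2.77e-06 by limma).

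Of 7 transcription factors, 5 were tested in each experiment. In slr1, 0 were called by limma and edgeR, while DESeq2 called bZIP23. The log2 fold change of bZIP23, an activator of drought-protective genes, was 0.95 (adjusted p = 0.0963 by limma), and that of TRAB1, whose groups did not overlap, was 0.57 (adjusted p = 0.0572 by limma). These were the 2 of 5 factors at an unadjusted p under 0.05 in limma, against 19.3% higher and 19.3% lower of all genes. After GA, 0 of 5 were called by limma, edgeR or DESeq2 and 1 was at an unadjusted p under 0.05 in limma, ABF1 (log2 fold change 0.19, adjusted p = 0.0103 by limma). Of all genes, 21.1% were higher and 20.5% lower at that threshold. Factor medians were 0.10 and -0.01.

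Of 5 ABA-responsive targets, genes of protective LEA proteins, 4 were tested. RAB16A rose in slr1, from 5.81, 7.45 and 59.0 normalised reads to 281, 240 and 698 (log2 fold change 4.58, adjusted p = 0.0101 by limma), and the groups did not overlap. RAB16A reached the filter minimum of 10 in 1 wild-type library and 3 slr1 libraries, so its place among the tested genes leaned on slr1. With no filter its adjusted p was 0.0109 by limma. Without replicate 2 of both groups the adjusted p of RAB16A was 0.0526 by limma. After GA, 3 of the 4 fell in limma: RAB16A from 405 ± 12.1 to 14.1 ± 3.25 (SD, n = 3), LEA3 from 170 ± 18.5 to 4.44 ± 0.363, and RAB16B from 32.7 ± 2.44 to 2.75 ± 1.62. Their log2 fold changes were -4.77, -4.97 and -3.27. LEA3 and RAB16B were below 10 in every GA library and passed the filter through the control libraries alone, so their part in the count of 3 is no support for the list. With no filter both stayed past the threshold (adjusted p = 1.52e-14 and 5.18e-07 by limma). RAB16C had a log2 fold change of -0.96 (adjusted p = 0.0496 by limma) and was called by edgeR. In wild-type replicate 3, the library in which most phosphatase genes stood highest, LEA3 was at 111 against 0.968 and 1.06 in the other wild-type libraries, and in slr1 it was at 52.5, 15.7 and 33.0 (log2 fold change 2.02, adjusted p = 0.364 by limma). Without that library its log2 fold change was 3.95 (adjusted p = 0.0198 by limma). The target median was 1.28 in slr1 in limma but 0.36 in edgeR and 0.35 in DESeq2, where LEA3 had log2 fold changes of -0.16 and -0.17. Each of the 4 tested targets reached 10 in only 1 wild-type library, so the slr1 median is no support for the list. After GA the target median was -4.02 in limma. That median includes LEA3 and RAB16B, which passed the filter through the control libraries alone, so it is no support for the list either.

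**Figure D5:**
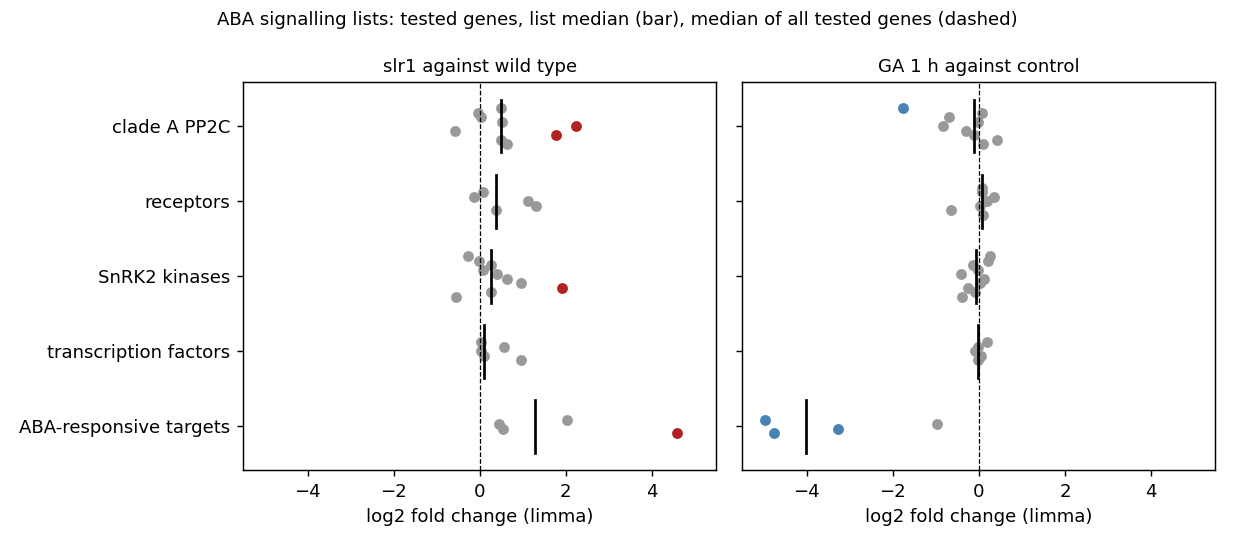
Log2 fold change (limma) of the tested genes of each list of the ABA pathway, slr1 against wild type and GA against control, with 1 point per gene (red rose, blue fell, grey not called), a bar at the list median and a dashed line at the median of all genes tested. The targets RAB16A, LEA3 and RAB16B lie at -3.27 or below after GA, the kinase SAPK3 at 1.91 in slr1, and the receptors and factors between -0.65 and 1.31. In the GA comparison LEA3 and RAB16B passed the filter through the control libraries alone.

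Across the 12 libraries, with each gene centred and scaled within its experiment, PP2C49 and PP2C68 followed the mean of the other members most closely (Pearson r 0.70 for each) and PP2C53 ran against it (r -0.44). Among 22949 other genes the 3 whose pattern was most like the mean of the 9 members were LOC_Os02g17500 (r = 0.874), LOC_Os01g46290 (r = 0.854) and LOC_Os06g01070 (r = 0.848). These are descriptions over libraries of separate experiments, which differ in depth, with no test. Of these, LOC_Os02g17500, had log2 fold changes of 0.11 in slr1 and -0.23 after GA (adjusted p = 0.599 and 6.91e-06 by limma).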

How the data were processed

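HISAT2 and featureCounts 2.0.0, with DESeq2 1.38.3 and DESeq, are named in the submitters' processing notes. Genome build, annotation, strand setting and the handling of reads shared by similar genes were not given in the sources used here. Reads of near-identical copies may be split. The authors deposited 1 table per experiment with a signal for each library: reads per gene divided by a size factor. The same deposited tables give the authors' mean signal, log2 fold change, standard error, test statistic (a score), p-value and adjusted p-value. In all 12 libraries 100% of values were whole multiples, within 0.01, of the value of 1 read, so reads were recovered. Depth was 27778578 to 28010807 reads a library in the slr1 experiment and 17919838 to 20979965 in the GA experiment.

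Genes reaching 10 normalised reads in 3 or more of 6 libraries were tested in limma 3.58.1 (R 4.3.3) with a trend on log2(value + 1). The added 1 draws low values together. Means on this scale can also differ from ratios of mean reads, as for LEA3 in slr1 (log2 fold change 2.02, ratio of means 0.897). P-values were adjusted by Benjamini-Hochberg over all genes tested in the table. Each table was fitted separately. Calls needed a change of 2-fold or more (1 on the log2 scale) besides an adjusted p under 0.05. edgeR 4.0.16 (quasi-likelihood, TMM) and DESeq2 1.42.0 on the recovered reads, pseudocounts of 0.5 and 5, no filter, a replicate block and leaving out libraries were alternatives. When a library was left out, the genes tested with all 6 libraries were kept, a choice made after the values were seen, because a filter applied again left PP2C68 untested. The limma script was tested on simulated data, with changes placed only in genes of higher control means. That test did not cover changes of low genes such as PP2C49 in slr1 or PP2C68 after GA.

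The members and lists were chosen with earlier results of these data known. All 9 members are named, and from each list the called genes and, of the others, those with the largest fold change and the lowest adjusted p. The reference gene table matched 0 of the 9 members, so no position or sequence is given. The 6 H3K27me3 libraries and the inputs were not used here.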

Additional observations from a re-analysis of the deposited data

How the results depend on the processing

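With edgeR, DESeq2, both pseudocounts, no filter and the replicate block, the members that were called numbered 2 risen in slr1 and 1 fallen after GA, as in limma on all libraries. Whether same-numbered samples form pairs cannot be told from these values. Deviations of same-numbered samples correlated at 0.0936, 0.192 and -0.162 in the slr1 experiment and at -0.0141, -0.0327 and -0.0210 in the GA experiment. Wild-type replicates 1 and 2 correlated best with the slr1 sample of their own number, but wild-type replicate 3 with slr1 replicate 1 (0.309). With the replicate block PP2C50 in slr1 had a limma adjusted p of 0.0903. Leaving out 1 library, or replicate 2 of both groups (chosen after the data were seen), gave 1 to 3 members risen in slr1 and 1 to 2 fallen after GA. The pathway lists gave 2 to 4 genes risen in slr1 (4 without wild-type replicate 2, slr1 replicate 3 or replicate 2 of both groups), and 4 with DESeq2, against 2; PYL2, PYL5, SAPK4 and bZIP23 were each called in at least 1 of these settings. Over all genes the same settings gave 1093 (without wild-type replicate 3) to 1797 fallen and 1179 to 1632 risen in slr1. After GA, 392 genes fell with no filter and 180 rose with a pseudocount of 5, against 232 and 284. Values of uncalled genes that changed sign were PP2C51 in slr1 (-0.031 with edgeR, -0.042 with DESeq2, -0.016 without replicate 2 of both groups, -0.36 to 0.50 without 1 library), PP2C30 in slr1 (-1.14 to 0.23), PP2C68 in slr1 (-0.088 to 1.12), PP2C50 after GA (-0.087 to 0.021 without 1 library, -0.14 without replicate 2 of both groups) and LEA3 in slr1 (-0.16 with edgeR, -0.17 with DESeq2). The cause was not tested. Among the alternatives to the counts and summed levels, 108 stayed within 1.5 times the count or within the spread, and 10 moved further. Many of the 108 are counts of 0 that stayed at 0, such as members fallen in slr1, and say little about stability. PP2C68 after GA rests on 8 reads in each GA library.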
